A study of Homo sapiens with 12 samples.

Results

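The 34 genes described here encode proteins of end joining, of poly(ADP-ribose) metabolism and of single-strand break and base excision repair. They were chosen by name from the table of 59172 features, and each name matched 1 feature. The choice by name used no measured value, but it was made with earlier results of these data known. RNA was sequenced from HCT-116, an established line of human colorectal cancer cells, in 12 libraries, 3 in each of 4 groups. Wild-type cells were left untreated, were given CPT-11 for 24 h, or were pretreated with lovastatin for 4 h and then given CPT-11 for 24 h. Cells silenced for SHP2 with a short hairpin RNA (shSHP2) were also given CPT-11 for 24 h. The treatment label of the silenced samples names the lovastatin pretreatment as well, although neither the titles nor the protocol of treatment mention it for them. CPT-11 (irinotecan) is a prodrug of a topoisomerase I poison, lovastatin inhibits HMG-CoA reductase of the mevalonate pathway, and SHP2 is the tyrosine phosphatase encoded by PTPN11. The series asks what DNA damage by chemotherapy does in colon cancer cells, with cGAS-STING, a sensor pathway for cytosolic DNA, as its subject. Below, the groups are called untreated, CPT-11, lovastatin and silenced, and the last 3 all received CPT-11. Neither lovastatin without CPT-11, nor silenced cells without it, nor a control hairpin was analysed here, so the effect of either without the drug cannot be told apart from its effect with it. How many hairpins or clones gave the silenced cells is not given in the sources used here.

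A topoisomerase I poison traps the enzyme on a nicked strand. TDP1 and related enzymes can remove the trapped protein, PARP1 marks the nick with poly(ADP-ribose), XRCC1 with LIG3 seals it, and a nick met by a replication fork becomes a break. Non-homologous end joining then binds ends with the Ku dimer (XRCC5 and XRCC6), recruits the kinase DNA-PKcs (PRKDC) and joins ends with XRCC4 and LIG4. Base excision repair begins when a DNA glycosylase removes a damaged base and APEX1 cuts the backbone beside it.

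Printed are the promoters of 4 of the genes that passed below: XRCC4 and UNG in silenced cells against CPT-11 alone, XRCC6 and PARP3 with CPT-11. Each runs from 250 bases before to 50 after the RefSeq start (build GRCh38.p14), 5′ to 3′ on the gene's strand. Capitals mark the CCAAT box (CCAAT, or ATTGG where it lies on the other strand) and an E2F site.
XRCC4, chr5:83077297-83077596, plus strand: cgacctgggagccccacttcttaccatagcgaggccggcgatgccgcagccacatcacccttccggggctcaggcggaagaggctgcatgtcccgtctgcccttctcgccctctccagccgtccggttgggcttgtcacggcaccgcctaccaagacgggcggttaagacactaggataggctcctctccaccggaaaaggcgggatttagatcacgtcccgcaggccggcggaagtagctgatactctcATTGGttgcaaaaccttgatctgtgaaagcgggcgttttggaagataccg
XRCC6, chr22:41621045-41621344, plus strand: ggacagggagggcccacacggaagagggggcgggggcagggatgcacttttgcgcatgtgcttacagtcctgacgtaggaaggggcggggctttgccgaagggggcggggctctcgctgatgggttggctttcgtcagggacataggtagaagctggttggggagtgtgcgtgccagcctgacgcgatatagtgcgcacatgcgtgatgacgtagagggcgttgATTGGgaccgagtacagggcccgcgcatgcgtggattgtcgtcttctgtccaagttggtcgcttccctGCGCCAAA
UNG, chr12:109097347-109097646, plus strand: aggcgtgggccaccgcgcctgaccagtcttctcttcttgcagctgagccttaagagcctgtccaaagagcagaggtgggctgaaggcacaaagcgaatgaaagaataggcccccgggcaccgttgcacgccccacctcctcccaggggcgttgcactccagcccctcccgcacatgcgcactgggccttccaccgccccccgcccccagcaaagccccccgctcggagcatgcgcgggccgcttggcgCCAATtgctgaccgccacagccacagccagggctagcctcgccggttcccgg
PARP3, chr3:51942113-51942412, plus strand: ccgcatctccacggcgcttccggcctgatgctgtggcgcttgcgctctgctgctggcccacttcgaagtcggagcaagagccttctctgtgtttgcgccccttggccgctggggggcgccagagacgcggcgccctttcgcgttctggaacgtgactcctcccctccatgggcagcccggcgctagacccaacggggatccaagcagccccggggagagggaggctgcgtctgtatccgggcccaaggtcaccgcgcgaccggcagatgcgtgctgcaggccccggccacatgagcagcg
XRCC4 held a CCAAT box on the minus strand at bases 251 to 255, XRCC6 one on the minus strand at bases 225 to 229 and UNG one on the plus strand at bases 249 to 253. XRCC6 also held the E2F site TTTGGCGC on the minus strand at bases 293 to 300. PARP3 held neither. Promoters of 29 of the 34 genes were matched in the RefSeq table, and POLB, NEIL2, SMUG1, XRCC5 and PRKDC were not. Searched on both strands, CCAAT was present in 16 of the 29 (55.2%), against 34.61% of 35116 promoters of this length. Any of 4 E2F sites (TTTGGCGC, TTTCCCGC, TTTCGCGC, TTTGCCGC, which do not contain CCAAT) was present in 2, LIG1 and XRCC6 (6.9%), against 3.31%. The p53 half-site was present in 1, UNG (3.4%), against 6.63%. The E-box CACGTG was present in 6 (LIG3, FEN1, NTHL1, TDG, MPG and APEX1; 20.7%), against 7.26%, the NRF1 site in its palindromic form in 2 (TDP2 and NEIL3; 6.9%), against 1.24%, and the CRE TGACGTCA in 1 (PARP2; 3.4%), against 1.85%. These are matches of letters in a window.

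Each library held 14447847 to 16224271 reads assigned to genes, recovered from the deposited FPKM values (fragments scaled for gene length and for the library, a level per length). PTPN11 was at 6.01 to 7.15 FPKM in the silenced libraries and at 43.2 to 55.4 FPKM in the other 9. HMGCS1, a gene that responds to statins, was at 101 to 105 FPKM in the lovastatin libraries and at 24.9 to 25.8 FPKM in the silenced ones, which goes against the lovastatin named in the label of the latter. Of 7 epithelial markers all were tested and summed to 872 to 1270 FPKM. Fibroblast markers summed to 3.16 to 5.94 FPKM with 1 of 5, COL1A1, passing the filter on low values, endothelial markers to at most 0.368 FPKM and blood cell markers to at most 0.690 FPKM. Replicate 3 of CPT-11 stood apart from replicates 1 and 2, and the counts that use the CPT-11 group are given with and without it. RN7SL2, a noncoding RNA singled out after its values were seen, was at 400 FPKM in that library and at 37.2 and 17.6 FPKM in replicates 1 and 2. It also moved with the groups, at 71.1 to 155 FPKM in untreated, 227 to 346 FPKM in lovastatin and 1065 to 1469 FPKM in silenced libraries, and differed by 4.24 ± 0.83 (adjusted p = 0.0089) between silenced cells and CPT-11 alone. Its part in the differences below was not tested. In bulk RNA, less RNA per cell and fewer cells in a given state cannot be told apart.

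All 34 genes passed the filter on low values. In untreated cells XRCC6 was the most abundant of them, at 294, 288 and 295 FPKM, followed by XRCC5 at 114, 124 and 132 FPKM and APEX1 at 120.1, 114 and 110.4 FPKM. The ranges of XRCC5 and APEX1 overlapped. PARP1 at 73.4, 71.2 and 72.0 FPKM lay above PRKDC and FEN1, whose ranges overlapped each other, and UNG came next. The other 27 genes lay between 0.0609 and 24.3 FPKM. OGG1, the 8-oxoguanine glycosylase, was at 2.02, 1.53 and 1.49 FPKM. NHEJ1, the XRCC4-like factor of end joining, was lowest at 0.178, 0.0609 and 0.174 FPKM, with 1 to 16 reads per library over all 12, and its values say little at this depth.

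With CPT-11 alone both Ku genes fell, and PARP3, APTX and FEN1 rose. In all, 7 of the 34 genes (20.6%) passed limma's test at an adjusted p of 0.05, against 16.5% of the 18062 genes tested (8.85% higher and 7.70% lower), a share near the background. Besides the Ku genes, APEX1 and NTHL1 fell, which makes 3 higher and 4 lower. The median difference of the 34 was -0.03 against -0.007 over all genes tested, in log2(FPKM + 1), the scale of every difference below. Without CPT-11 replicate 3, 14 of the 34 passed (7 higher and 7 lower), against 24.5% of all genes (11.6% higher and 12.9% lower), and all of the 7 were among them. PARP3, APTX and XRCC6 passed whichever of the 6 libraries of these groups was left out, and they alone passed when only these 2 groups were fitted (against 6.39% of all genes).

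Lovastatin before CPT-11 differed from CPT-11 alone in 1 of the 34 genes (2.9%), PRKDC, which fell. The share over all genes tested was 0.465% (0.393% higher and 0.0720% lower). At an unadjusted p under 0.05, 4 genes were higher and 8 lower, but the share of all genes at that looser threshold was not counted. At an adjusted p of 0.05, voom on the recovered reads called 1 lower and 0 higher (0.814% of all genes). Without CPT-11 replicate 3 the count was 18 (5 higher and 13 lower), against 30.2% of all genes (15.9% higher and 14.3% lower). The median difference was -0.07 against 0.004 over all genes. The count for this comparison thus ran from 0 to 18 as single libraries were left out (0.227% to 30.2% of all genes), and 1 library set its upper end.

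Silenced cells given CPT-11 differed from wild-type cells given CPT-11 in 14 of the 34 genes (41.2%), against 22.0% of all genes tested (10% higher and 12% lower). The 7 higher were UNG, NEIL1, OGG1, APEX1, NTHL1, NEIL2 and XRCC1, of which 6 are glycosylases or the AP endonuclease. The 7 lower were XRCC4, TDG, LIG4, MBD4, TDP2, XRCC5 and PARP1. Without CPT-11 replicate 3 the count was 28 (13 higher and 15 lower), against 43.5% of all genes (21.6% higher and 21.9% lower). XRCC4, UNG and TDG passed whichever of the 6 libraries of these groups was left out. Fitted on these 2 groups only, XRCC4 alone passed (against 2.50% of all genes), with adjusted p of 0.053 for TDG and 0.064 for UNG. Between the silenced and the lovastatin groups, whose difference does not use the CPT-11 libraries although these enter the estimate of the spread, 3 genes passed (8.8%, against 6.84% of all genes, 2.58% higher and 4.26% lower), UNG and APEX1 higher and TDG lower, and 9 passed when only these 2 groups were fitted (against 13.5% of all genes).

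Set against untreated cells, 15 genes passed with lovastatin and CPT-11 (44.1%, against 29.0% of all genes) and 21 in the silenced group (61.8%, against 37.8%). These comparisons share the untreated libraries with that of CPT-11 alone. Lovastatin and CPT-11 gave 4 higher and 11 lower (14.7% and 14.3% of all genes), and the silenced group 9 higher and 12 lower (18.3% and 19.5%). Over the 6 comparisons 26 of the 34 genes passed at least once. The share of all genes that did so was not counted, and is at least the 37.8% of silenced against untreated cells. PARG, LIG1, POLB, MUTYH, MPG, DCLRE1C, NHEJ1 and TP53BP1 passed in none. Without CPT-11 replicate 3, 6 of these 8 passed between silenced cells and CPT-11 alone, where 43.5% of all genes did. MPG, LIG1 and NHEJ1 were higher, by 0.68 (adjusted p = 0.0001), 0.27 (0.0024) and 0.22 (0.043), and PARG, DCLRE1C and TP53BP1 differed by -0.33 (adjusted p = 0.018), -0.30 (0.021) and -0.18 (0.024). With a correction for GC content and length, MUTYH passed there at -0.25 (adjusted p = 0.04), and POLB passed between silenced and untreated cells at 0.22 (adjusted p = 0.021).

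**Figure D1:**
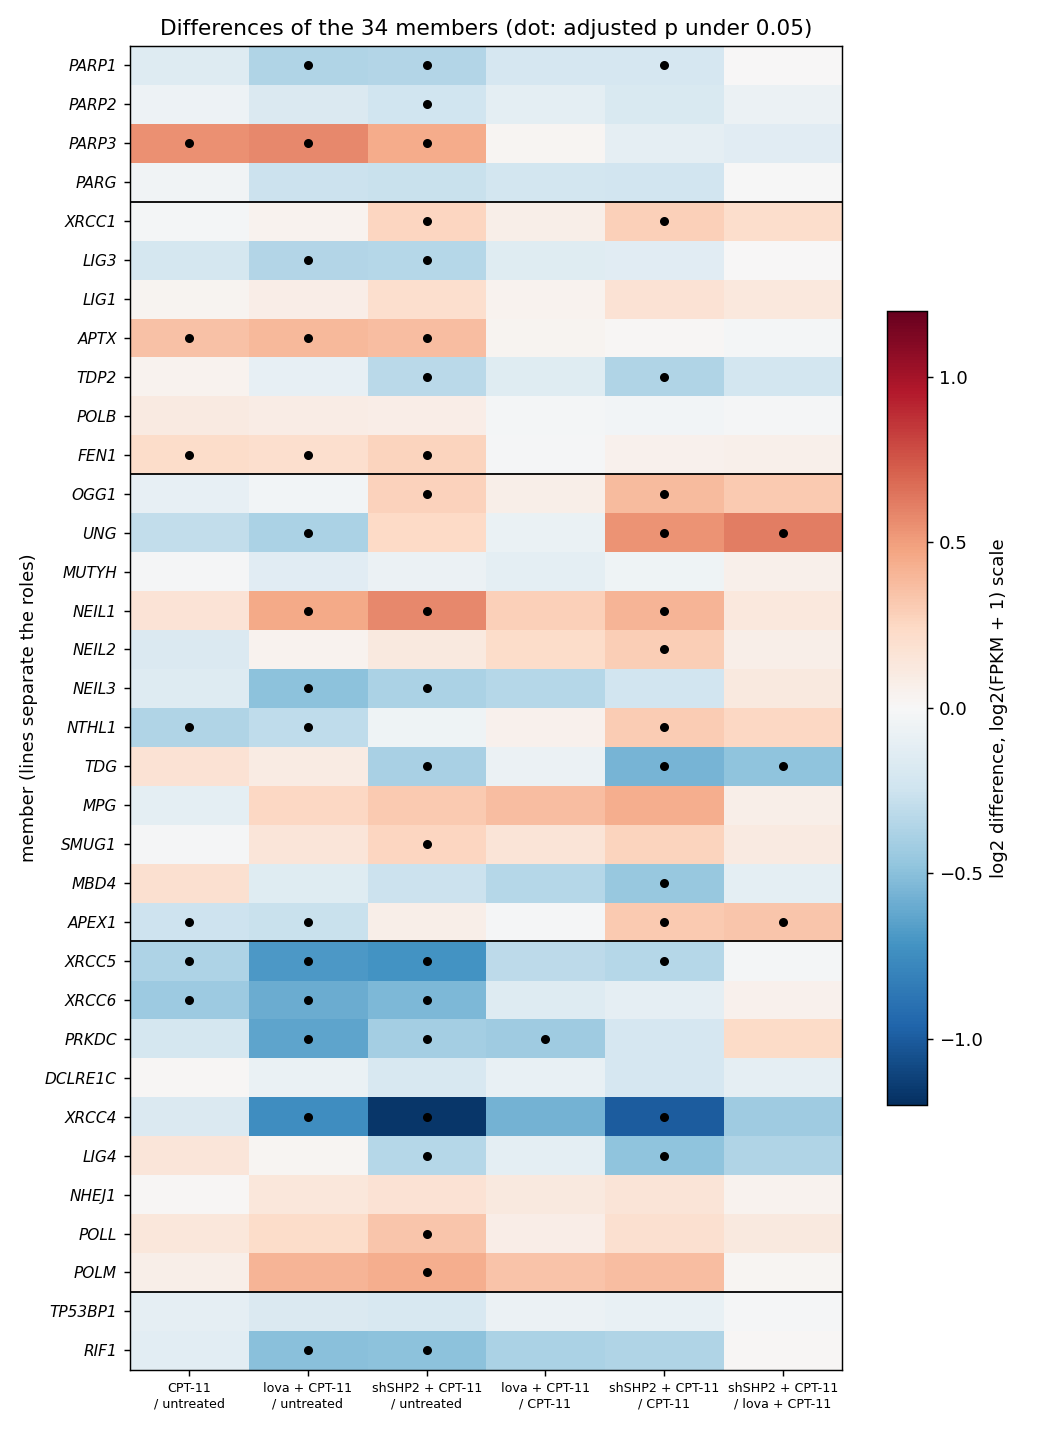
Differences between groups (color, log2(FPKM + 1) scale) of the 34 genes (rows, by role) in the 6 comparisons (columns), with a dot where limma's adjusted p was under 0.05. The Ku genes, PRKDC and XRCC4 are blue in every comparison with untreated cells, while PARP3 and APTX are red in the 3. For CPT-11 alone PRKDC (-0.21) and XRCC4 (-0.17) have no dot, and XRCC4 was at 0 without CPT-11 replicate 3.

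Both subunits of Ku, the ring that first binds a broken end, fell with CPT-11. XRCC6 (Ku70; ENSG00000196419, chromosome 22, 41621119 to 41664048, GRCh38) was at 294, 288 and 295 FPKM in untreated cells, 215, 235 and 200.1 with CPT-11, 196.5, 192 and 192 with lovastatin and 189.7, 201 and 210.4 in silenced cells. Every CPT-11-treated library lay below every untreated one. XRCC6 differed by -0.43 ± 0.06 (adjusted p = 0.00098) between CPT-11 and untreated cells, by -0.59 ± 0.06 (adjusted p = 6.9e-05) with lovastatin and by -0.54 ± 0.06 (adjusted p = 9.4e-05) in silenced cells. XRCC5 (Ku80; ENSG00000079246, chromosome 2, 216107464 to 216206303) was at 114, 124 and 132 FPKM untreated, 102, 105 and 79.7 with CPT-11, 76.6, 74.9 and 76.5 with lovastatin and 71.3, 75.0 and 77.5 in silenced cells. The third CPT-11 library stood near the lovastatin libraries and replicates 1 and 2 did not. XRCC5 fell by 0.37 ± 0.09 (adjusted p = 0.02) with CPT-11, and differed from untreated cells by -0.69 ± 0.09 (adjusted p = 0.00032) with lovastatin and -0.71 ± 0.09 (adjusted p = 0.00019) when silenced. The fall with CPT-11 alone did not pass without untreated replicate 2 or 3 (adjusted p = 0.063 to 0.076). Against CPT-11 alone silenced cells differed by -0.34 ± 0.09 (adjusted p = 0.027), a call lost without any 1 library other than CPT-11 replicate 3 (adjusted p = 0.053 to 0.11).

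PRKDC, the catalytic subunit of DNA-PK, was the gene that set lovastatin apart from CPT-11 alone. It was at 60.7, 65.6 and 69.6 FPKM in untreated cells, 57.9, 60.8 and 50.4 with CPT-11, 38.6, 42.4 and 44.1 with lovastatin and 48.1, 48.6 and 49.9 in silenced cells. All 3 lovastatin libraries lay below all others. PRKDC differed by -0.42 ± 0.08 (adjusted p = 0.043) between lovastatin and CPT-11, a call lost without any 1 library other than CPT-11 replicate 3 (adjusted p = 0.078 to 0.2). It was also lost with only these groups fitted (limma's adjusted p = 0.32), with no filter on low values (adjusted p = 0.1) and with the replicate block (adjusted p = 0.1). With a correction for GC content and length this difference was -0.32 ± 0.04 (adjusted p = 0.0041). Against untreated cells the differences were -0.64 ± 0.08 (adjusted p = 0.00015) with lovastatin and -0.41 ± 0.08 (adjusted p = 0.0018) when silenced, and -0.21 ± 0.08 (adjusted p = 0.087) with CPT-11 alone.

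**Figure D2:**
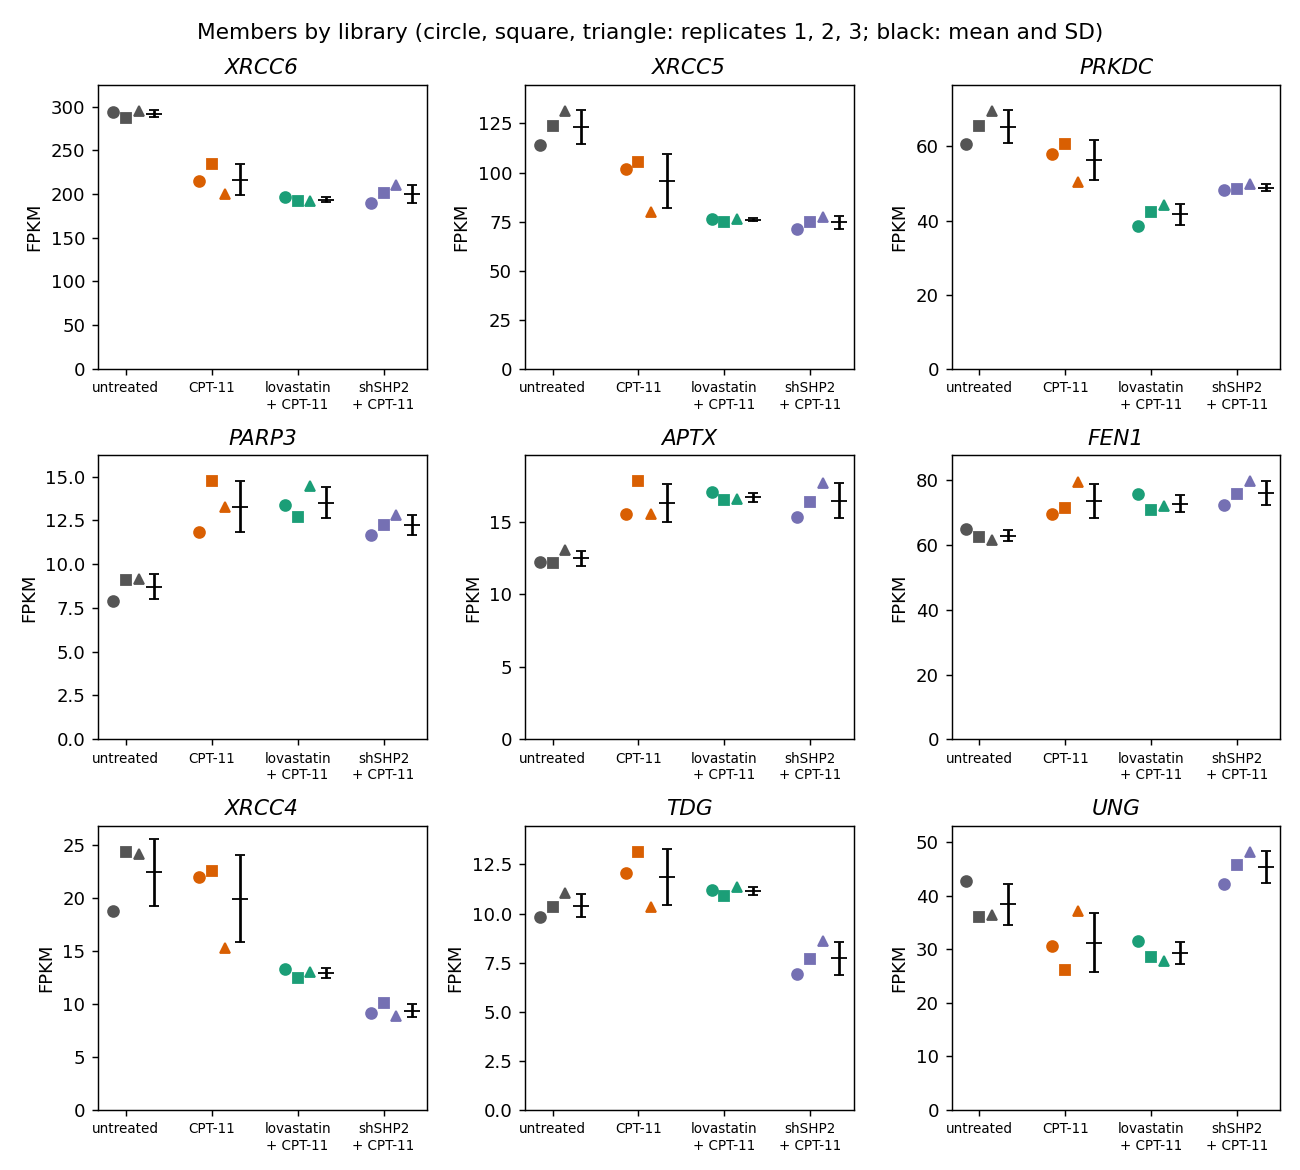
FPKM (linear axis from 0) of 9 genes in each of the 12 libraries, by group, with the mean and SD over 3 libraries in black. XRCC4 is lowest in the silenced libraries (8.85 to 10.03 FPKM), TDG is lowest there too (6.90 to 8.59) and UNG highest (42.3 to 48.2, overlapping 1 untreated library at 42.7).

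XRCC4, the scaffold of the ligase that joins ends, showed the largest difference of the 34 genes in the silenced group. XRCC4 (ENSG00000152422, chromosome 5, 83077498 to 83353787) was at 18.8, 24.3 and 24.1 FPKM untreated, 22.0, 22.6 and 15.2 with CPT-11, 13.3, 12.4 and 13.0 with lovastatin and 9.16, 10.03 and 8.85 in silenced cells. The silenced libraries lay below all others and the lovastatin libraries next. XRCC4 differed by -1.0 ± 0.14 (adjusted p = 0.0014) between silenced cells and CPT-11 alone and by -1.17 ± 0.14 (adjusted p = 8.3e-05) against untreated cells. Corrected for GC content and length, the difference from CPT-11 alone was -0.80 ± 0.09 (adjusted p = 0.00022). The lovastatin group differed from untreated cells by -0.74 ± 0.14 (adjusted p = 0.0021), and from CPT-11 alone by -0.57 ± 0.14 (adjusted p = 0.11). CPT-11 alone differed from untreated cells in XRCC4 by -0.17 ± 0.14 (adjusted p = 0.44), and by 0 ± 0.10 without CPT-11 replicate 3. TMEM167A starts within XRCC4 on the other strand, and differed between silenced cells and CPT-11 alone by -0.56 ± 0.06 (adjusted p = 0.00044). Between lovastatin and untreated cells TMEM167A differed by 0.15 ± 0.06 (adjusted p = 0.11). Reads from the overlap cannot be told apart if strand was not used in counting. LIG4, the ligase that XRCC4 holds, was at 6.28, 6.24 and 7.47 FPKM untreated, 8.24, 8.55 and 5.79 with CPT-11, 6.49, 6.52 and 7.35 with lovastatin and 5.198, 4.71 and 5.23 in silenced cells. LIG4 was highest in CPT-11 replicates 1 and 2 and lowest in the silenced libraries. LIG4 differed by -0.48 ± 0.12 (adjusted p = 0.022) from CPT-11 alone, a call lost without CPT-11 replicate 1 or 2 or silenced replicate 1 or 2 (adjusted p = 0.06 to 0.093), and by -0.34 ± 0.12 (adjusted p = 0.047) from untreated cells, lost without any 1 of the 6 libraries (adjusted p = 0.06 to 0.16).

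The gap-filling polymerases of end joining were higher in silenced cells than in untreated ones. POLL (polymerase lambda) was at 6.93, 7.32 and 7.82 FPKM untreated, 7.73, 7.55 and 9.34 with CPT-11, 8.38, 8.77 and 8.99 with lovastatin and 9.17, 9.43 and 9.95 in silenced cells. POLL differed by 0.33 ± 0.08 (adjusted p = 0.0065) between silenced and untreated cells, and by 0.22 ± 0.08 (adjusted p = 0.057) between lovastatin and untreated ones. POLM (polymerase mu) was at 5.11, 4.39 and 5.01 FPKM untreated, 5.45, 3.63 and 6.65 with CPT-11, 7.48, 6.88 and 5.98 with lovastatin and 6.93, 6.99 and 6.77 in silenced cells. The CPT-11 libraries were widely spread. POLM differed by 0.44 ± 0.15 (adjusted p = 0.039) between silenced and untreated cells, a call lost without any 1 of the 6 libraries (adjusted p = 0.056 to 0.12). Lovastatin differed from untreated cells in POLM by 0.41 ± 0.15 (adjusted p = 0.06). Between silenced cells and lovastatin neither gene passed (adjusted p = 0.45 for POLL and 0.94 for POLM). DCLRE1C (Artemis, the nuclease that opens hairpin ends) and NHEJ1 passed in no comparison with all 12 libraries, and DCLRE1C ran from 2.12 to 3.12 FPKM. Of the 9 end-joining genes, 2 fell with CPT-11 alone (against 7.70% of all genes), and without CPT-11 replicate 3 it was 2 lower and 1 higher, LIG4 (12.9% and 11.6% of all genes). In silenced against untreated cells 5 fell and 2 rose (19.5% and 18.3% of all genes).

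Of the pair that steers the choice between end joining and resection, RIF1 passed and TP53BP1 (53BP1) did not in the fit of all 12 libraries. RIF1, which acts downstream of 53BP1, was at 8.04, 9.29 and 10.1 FPKM untreated, 9.49, 9.48 and 6.18 with CPT-11, 5.57, 6.27 and 6.58 with lovastatin and 5.999, 6.14 and 6.40 in silenced cells. The third CPT-11 library again stood with the lovastatin and silenced libraries. RIF1 differed from untreated cells by -0.50 ± 0.14 (adjusted p = 0.017) with lovastatin, lost without untreated replicate 2 or 3 or lovastatin replicate 1 (adjusted p = 0.053 to 0.067), and by -0.49 ± 0.14 (adjusted p = 0.014) when silenced, lost without untreated replicate 3 (adjusted p = 0.06). TP53BP1 was at 8.95, 8.87 and 9.56 FPKM untreated, 8.89, 9.20 and 7.26 with CPT-11, 7.58, 7.96 and 8.38 with lovastatin and 7.83, 7.99 and 7.78 in silenced cells, which differed from untreated ones by -0.19 ± 0.08 (adjusted p = 0.078).

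Among the enzymes that make or remove poly(ADP-ribose), PARP3 rose with CPT-11 while PARP1 was lower in the groups with lovastatin or silencing. PARP3, a mono-ADP-ribosyltransferase that acts at double-strand breaks (ENSG00000041880, chromosome 3, 51942345 to 51948867), was at 7.90, 9.09 and 9.16 FPKM untreated, 11.8, 14.7 and 13.2 with CPT-11, 13.4, 12.7 and 14.4 with lovastatin and 11.7, 12.2 and 12.8 in silenced cells. Every library given CPT-11 lay above every untreated one. PARP3 differed from untreated cells by 0.55 ± 0.08 (adjusted p = 0.0011) with CPT-11, 0.58 ± 0.08 (adjusted p = 0.00047) with lovastatin and 0.45 ± 0.08 (adjusted p = 0.0018) when silenced. PARP1, the main sensor of strand breaks, was at 73.4, 71.2 and 72.0 FPKM untreated, 64.9, 68.9 and 60.5 with CPT-11, 56.8, 55.9 and 55.5 with lovastatin and 54.6, 56.0 and 58.3 in silenced cells. The untreated libraries were highest, CPT-11 lay between, and the lovastatin and silenced libraries overlapped each other. PARP1 differed from untreated cells by -0.16 ± 0.05 (adjusted p = 0.063) with CPT-11, -0.36 ± 0.05 (adjusted p = 0.00046) with lovastatin and -0.35 ± 0.05 (adjusted p = 4e-04) when silenced. Against CPT-11 alone it differed by -0.20 ± 0.05 (adjusted p = 0.024) in silenced cells, a call lost without CPT-11 replicate 1 or 2 or silenced replicate 1 or 2 (adjusted p = 0.076 to 0.098). PARP2, the second break-activated enzyme, was at 15.6, 16.8 and 18.0 FPKM untreated, 16.9, 17.3 and 14.1 with CPT-11, 15.4, 14.9 and 13.9 with lovastatin and 14.2, 14.3 and 13.5 in silenced cells. The silenced libraries lay below the untreated ones, and PARP2 differed between them by -0.24 ± 0.08 (adjusted p = 0.032), lost without any 1 library other than untreated replicate 1 (adjusted p = 0.062 to 0.12). PARG, the hydrolase that removes the polymer, ran from 7.57 to 11.1 FPKM and passed in no comparison with all 12 libraries.

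In single-strand break repair, APTX and FEN1 were higher than untreated in all 3 groups given CPT-11. LIG3 was lower than untreated in all 3 and passed only with lovastatin or silencing. APTX (aprataxin, which clears aborted ligations) was at 12.2, 12.2 and 13.1 FPKM untreated, 15.5, 17.8 and 15.5 with CPT-11, 17.1, 16.5 and 16.6 with lovastatin and 15.3, 16.4 and 17.7 in silenced cells. All CPT-11-treated libraries exceeded all untreated ones. APTX differed from untreated cells by 0.36 ± 0.07 (adjusted p = 0.0043), 0.39 ± 0.07 (adjusted p = 0.0014) and 0.37 ± 0.07 (adjusted p = 0.0015) with CPT-11, lovastatin and silencing. FEN1, the flap endonuclease of long-patch repair and of Okazaki fragments, was at 64.9, 62.4 and 61.5 FPKM untreated, 69.7, 71.4 and 79.6 with CPT-11, 75.7, 70.8 and 72.0 with lovastatin and 72.3, 75.9 and 79.7 in silenced cells. The groups given CPT-11 overlapped one another and lay above the untreated one. FEN1 differed by 0.22 ± 0.06 (adjusted p = 0.029) with CPT-11, lost without untreated replicate 2 or 3 (adjusted p = 0.091 to 0.092), by 0.21 ± 0.06 (adjusted p = 0.024) with lovastatin, lost without untreated replicate 2 or 3 or lovastatin replicate 1 or 3 (adjusted p = 0.052 to 0.086), and by 0.27 ± 0.06 (adjusted p = 0.0051) when silenced.

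LIG3, the ligase partner of XRCC1, was at 4.55, 4.57 and 4.10 FPKM untreated, 4.07, 3.69 and 3.31 with CPT-11, 2.94, 3.56 and 3.21 with lovastatin and 3.08, 3.35 and 3.34 in silenced cells. The untreated libraries were the highest. LIG3 differed from them by -0.35 ± 0.08 (adjusted p = 0.0096) with lovastatin, -0.34 ± 0.08 (adjusted p = 0.0082) when silenced and -0.21 ± 0.08 (adjusted p = 0.12) with CPT-11 alone. From CPT-11 alone LIG3 differed by -0.145 ± 0.084 (adjusted p = 0.33) with lovastatin and -0.137 ± 0.084 (adjusted p = 0.25) when silenced. XRCC1, the scaffold itself, was at 6.81, 5.91 and 6.13 FPKM untreated, 5.28, 6.21 and 7.005 with CPT-11, 6.89, 6.40 and 6.26 with lovastatin and 7.42, 7.71 and 7.99 in silenced cells. Here the silenced libraries were the highest. XRCC1 differed by 0.29 ± 0.09 (adjusted p = 0.041) from CPT-11 alone, a call lost without any 1 library other than CPT-11 replicate 3 (adjusted p = 0.084 to 0.15), and by 0.26 ± 0.09 (adjusted p = 0.038) from untreated cells, lost without any 1 library other than untreated replicate 1 (adjusted p = 0.063 to 0.13). TDP2, which frees topoisomerase II from DNA ends, was at 15.6, 15.6 and 15.7 FPKM untreated, 17.0, 17.9 and 13.7 with CPT-11, 14.4, 14.4 and 14.6 with lovastatin and 12.4, 11.9 and 12.5 in silenced cells. The silenced libraries lay below all others. TDP2 differed by -0.36 ± 0.08 (adjusted p = 0.012) from CPT-11 alone, lost without CPT-11 replicate 1 (adjusted p = 0.057), and by -0.33 ± 0.08 (adjusted p = 0.0074) from untreated cells. LIG1, the replicative ligase, and POLB (polymerase beta, which fills short patches) passed in no comparison with all 12 libraries, at 13.2 to 17.6 FPKM and 5.10 to 6.38 FPKM.

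Of the 11 glycosylases and APEX1, 6 were higher and 2 lower in silenced cells than with CPT-11 alone (against 10% and 12% of all genes). Corrected for GC content and length, 4 were higher and 3 lower, the calls of NEIL2 and NTHL1 being lost, and without CPT-11 replicate 3 it was 8 and 3 (21.6% and 21.9% of all genes). With CPT-11 alone 2 fell and 0 rose (7.70% and 8.85%). Without replicate 3 it was 5 lower, UNG, NEIL2, NTHL1, MPG and APEX1, and 2 higher, TDG and MBD4 (12.9% and 11.6%). UNG, which removes uracil (ENSG00000076248, chromosome 12, 109097574 to 109110992), was at 42.7, 36.0 and 36.5 FPKM untreated, 30.6, 26.1 and 37.1 with CPT-11, 31.6, 28.5 and 27.8 with lovastatin and 42.3, 45.7 and 48.2 in silenced cells. The silenced libraries lay above all those of CPT-11 and lovastatin. UNG differed by 0.54 ± 0.11 (adjusted p = 0.011) from CPT-11 and by 0.62 ± 0.11 (adjusted p = 0.0078) from lovastatin. Corrected for GC content and length, the first was 0.51 ± 0.10 (adjusted p = 0.0096). In the lovastatin group UNG was lower than untreated by 0.38 ± 0.11 (adjusted p = 0.027), a call lost without untreated replicate 1 or lovastatin replicate 2 or 3 (adjusted p = 0.081 to 0.092). Silenced cells differed from untreated ones in UNG by 0.24 ± 0.11 (adjusted p = 0.12). TDG, which removes thymine and oxidised methylcytosine opposite guanine (ENSG00000139372, chromosome 12, 103965804 to 103988874), was lowest in silenced cells. TDG was at 9.85, 10.3 and 11.03 FPKM untreated, 12.1, 13.2 and 10.3 with CPT-11, 11.2, 10.9 and 11.3 with lovastatin and 6.90, 7.70 and 8.59 in silenced cells, and these did not overlap the others. TDG differed by -0.56 ± 0.09 (adjusted p = 0.0037) from CPT-11, by -0.48 ± 0.09 (adjusted p = 0.009) from lovastatin and by -0.39 ± 0.09 (adjusted p = 0.0062) from untreated cells. After the GC and length correction its difference from CPT-11 was -0.35 ± 0.06 (adjusted p = 0.0026).

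APEX1, the AP endonuclease, was at 120.1, 114 and 110.4 FPKM untreated, 88.5, 102 and 98.9 with CPT-11, 104, 92.9 and 89.2 with lovastatin and 114, 120.2 and 127 in silenced cells. The untreated and silenced libraries overlapped and lay above both other groups. APEX1 fell by 0.25 ± 0.07 (adjusted p = 0.038) with CPT-11, lost without untreated replicate 1, 2 or 3 or CPT-11 replicate 1 (adjusted p = 0.059 to 0.13), and differed from untreated by -0.27 ± 0.07 (adjusted p = 0.018) with lovastatin, lost without untreated replicate 1 or lovastatin replicate 2 or 3 (adjusted p = 0.06 to 0.071). It was higher in silenced cells by 0.32 ± 0.07 (adjusted p = 0.016) than with CPT-11, lost without CPT-11 replicate 1 or silenced replicate 2 or 3 (adjusted p = 0.053 to 0.07), and by 0.33 ± 0.07 (adjusted p = 0.02) than with lovastatin, lost without lovastatin replicate 2 or 3 or silenced replicate 2 or 3 (adjusted p = 0.072 to 0.089). NTHL1, which removes oxidised pyrimidines, was at 7.88, 7.71 and 6.55 FPKM untreated, 5.18, 5.16 and 6.24 with CPT-11, 6.63, 5.34 and 5.38 with lovastatin and 6.86, 7.02 and 7.28 in silenced cells. CPT-11 replicates 1 and 2 were the 2 lowest libraries. NTHL1 fell by 0.36 ± 0.10 (adjusted p = 0.027) with CPT-11, lost without untreated replicate 1 or 2 or CPT-11 replicate 1 or 2 (adjusted p = 0.08 to 0.095), and by 0.31 ± 0.10 (adjusted p = 0.035) with lovastatin against untreated cells, lost without untreated replicate 1 or 2 or lovastatin replicate 2 or 3 (adjusted p = 0.1 to 0.12). In silenced cells it was higher than with CPT-11 by 0.31 ± 0.10 (adjusted p = 0.044), lost without any 1 library other than CPT-11 replicate 3 (adjusted p = 0.096 to 0.15), and after the GC and length correction this difference was -0.003 (adjusted p = 0.98).

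Of the NEIL glycosylases, which act on oxidised bases, NEIL1 was higher and NEIL3 lower in silenced than in untreated cells. NEIL1 was at 3.02, 2.55 and 2.43 FPKM untreated, 2.95, 2.58 and 3.87 with CPT-11, 4.32, 4.11 and 3.58 with lovastatin and 4.30, 4.57 and 4.45 in silenced cells. It was lowest in untreated cells and in CPT-11 replicates 1 and 2. NEIL1 differed by 0.45 ± 0.11 (adjusted p = 0.012) with lovastatin and 0.57 ± 0.11 (adjusted p = 0.0024) when silenced against untreated cells, and by 0.41 ± 0.11 (adjusted p = 0.029) from CPT-11 alone, a call lost without any 1 library other than CPT-11 replicate 3 (adjusted p = 0.069 to 0.12). NEIL2 was at 13.4, 13.4 and 11.6 FPKM untreated, 9.90, 10.98 and 12.8 with CPT-11, 14.1, 12.5 and 12.9 with lovastatin and 12.8, 13.8 and 15.1 in silenced cells. The lowest silenced library (12.85) lay just above the highest CPT-11 one (12.78), and NEIL2 differed by 0.29 ± 0.09 (adjusted p = 0.048), lost without any 1 library other than CPT-11 replicate 3 (adjusted p = 0.071 to 0.18). NEIL3, the NEIL enzyme expressed in S phase, was at 7.89, 9.66 and 10.3 FPKM untreated, 8.68, 9.05 and 7.02 with CPT-11, 6.21, 6.47 and 6.08 with lovastatin and 6.69, 7.51 and 6.46 in silenced cells. The untreated libraries lay above the lovastatin and silenced ones. NEIL3 differed from untreated cells by -0.50 ± 0.10 (adjusted p = 0.005) with lovastatin and by -0.38 ± 0.10 (adjusted p = 0.016) when silenced, the latter lost without untreated replicate 2 or 3 or silenced replicate 1 or 3 (adjusted p = 0.051 to 0.068).

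OGG1, SMUG1 and MBD4 remove 8-oxoguanine, uracil and mismatched thymine. OGG1 was at 2.02, 1.53 and 1.49 FPKM untreated, 1.34, 1.35 and 1.85 with CPT-11, 1.63, 1.57 and 1.64 with lovastatin and 2.21, 2.10 and 2.44 in silenced cells, the highest group. OGG1 differed by 0.38 ± 0.10 (adjusted p = 0.026) from CPT-11, lost without any 1 library other than CPT-11 replicate 3 (adjusted p = 0.058 to 0.1), and by 0.28 ± 0.10 (adjusted p = 0.047) from untreated cells, lost without any 1 library other than untreated replicate 1 (adjusted p = 0.067 to 0.16). SMUG1 was at 5.40, 5.02 and 4.71 FPKM untreated, 4.93, 4.33 and 5.83 with CPT-11, 5.89, 5.86 and 5.26 with lovastatin and 5.95, 6.20 and 6.46 in silenced cells. Silenced libraries were again the highest, and SMUG1 differed from untreated cells by 0.25 ± 0.09 (adjusted p = 0.048), lost without any 1 library other than untreated replicate 1 (adjusted p = 0.075 to 0.15). MBD4 was at 6.98, 8.496 and 8.60 FPKM untreated, 9.42, 11.3 and 7.51 with CPT-11, 6.93, 7.02 and 7.49 with lovastatin and 6.64, 6.41 and 6.45 in silenced cells. CPT-11 replicates 1 and 2 were the highest libraries and the silenced ones the lowest. MBD4 differed by -0.46 ± 0.12 (adjusted p = 0.023) from CPT-11, lost without any 1 library other than CPT-11 replicate 3 (adjusted p = 0.06 to 0.084). MUTYH (adenine opposite 8-oxoguanine) and MPG (alkylated purines) passed in no comparison with all 12 libraries. MPG was at 6.02, 5.04 and 9.79 FPKM with CPT-11, a wider spread than in any other group, and differed by 0.44 ± 0.16 (adjusted p = 0.069) in silenced cells. Without CPT-11 replicate 3 this was 0.68 (adjusted p = 0.0001), lovastatin differed from CPT-11 by 0.61 (adjusted p = 0.00076) and CPT-11 from untreated cells by -0.36 (adjusted p = 0.0045). With the GC and length correction and all libraries, silenced cells differed from CPT-11 by 0.05 ± 0.08 (adjusted p = 0.69).

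In the third CPT-11 library the values of these genes differed from replicates 1 and 2 along with base composition. That library lay further from replicates 1 and 2 than those lay from each other in 27 of the 34 genes (79.4%), against 57.5% of all genes tested. In 30 of the 34 (88.2%, against 73.3%) it was nearer to the lovastatin mean than to the mean of replicates 1 and 2. Across the 34 genes its difference from replicates 1 and 2 had a Pearson r of 0.89 with the GC content of the longest transcript, and of 0.63 across 17793 genes with a GC value. RIF1, at 37.3% GC, was 0.55 lower in it and MPG, at 65.6% GC, was 0.73 higher. Over all genes with a GC value, log2(FPKM + 1) was taken as the deviation from each gene's mean over the 12 libraries. That deviation changed with each 10 points of GC by 0.08 in CPT-11 replicate 3 and by -0.15 and -0.17 in replicates 1 and 2. It changed by -0.14 to -0.01 in untreated, 0.01 to 0.07 in lovastatin and 0.10 to 0.13 in silenced libraries. For the 34 genes the r with GC was 0.80 for silenced minus CPT-11, 0.75 for lovastatin minus CPT-11 and 0.71 for silenced minus untreated, and 0.03 for CPT-11 minus untreated. These are descriptions across genes that share libraries, and genes are not independent replicates.

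**Figure D3:**
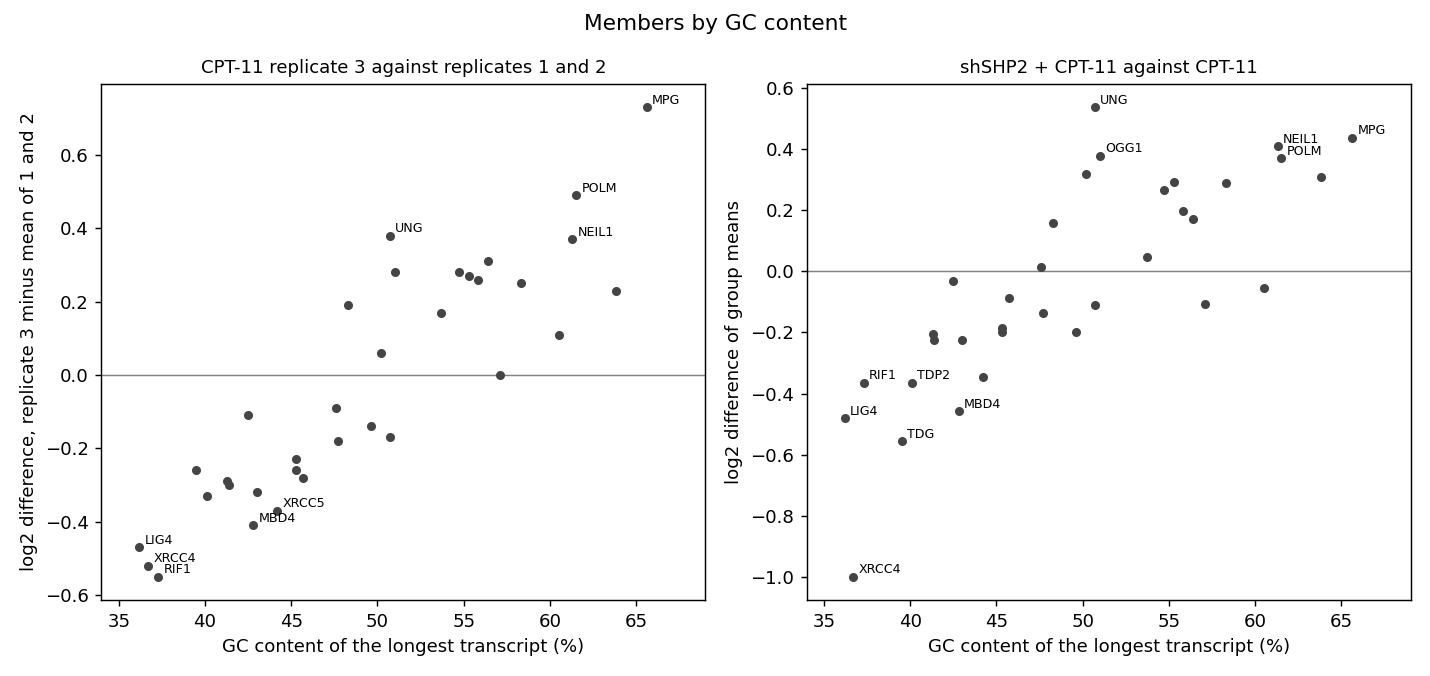
GC content of the longest transcript (x axis, percent) against a log2 difference (y axis) for the 34 genes, as 1 point each: CPT-11 replicate 3 minus the mean of replicates 1 and 2 on the left, silenced minus CPT-11 on the right. Points rise from left to right in both (r = 0.89 and 0.80), and XRCC4 lies lowest on the right at -1.0.

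With the log2 values corrected for GC content and length, 10 of the 34 genes passed for CPT-11 against untreated cells (against 25.6% of 17793 genes), 2 for lovastatin against CPT-11 (1.57%), 12 for silenced cells against CPT-11 (17.3%) and 6 for silenced against lovastatin (12.4%). The 2 of lovastatin against CPT-11 were PRKDC and XRCC4, at -0.32 ± 0.04 (adjusted p = 0.0041) and -0.46 ± 0.09 (adjusted p = 0.028). It ended the calls of XRCC1 (adjusted p = 0.14), NEIL2 (0.082) and NTHL1 (0.98) for silenced cells against CPT-11. Against untreated cells it ended those of PARP2 (adjusted p = 0.058), XRCC1 (0.35), SMUG1 (0.078), LIG4 (0.2) and POLM (0.14). Among calls that stayed, it took TDP2 in silenced cells against CPT-11 from -0.36 to -0.19, LIG4 from -0.48 to -0.26, NEIL1 from 0.41 to 0.22 and XRCC5 from -0.34 to -0.21. Against untreated cells it took the silenced values of PARP3 from 0.45 to 0.28, TDP2 from -0.33 to -0.16, FEN1 from 0.27 to 0.16 and NEIL1 from 0.57 to 0.38. Those of NEIL3 went from -0.38 to -0.23, TDG from -0.39 to -0.19, PRKDC from -0.41 to -0.25 and RIF1 from -0.49 to -0.23. For lovastatin against untreated cells FEN1 went from 0.21 to 0.13, RIF1 from -0.50 to -0.31 and NTHL1 from -0.31 to -0.51. The correction alters values by a property that moves with the groups, so how much of each difference is technical was not tested.

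**Figure D4:**
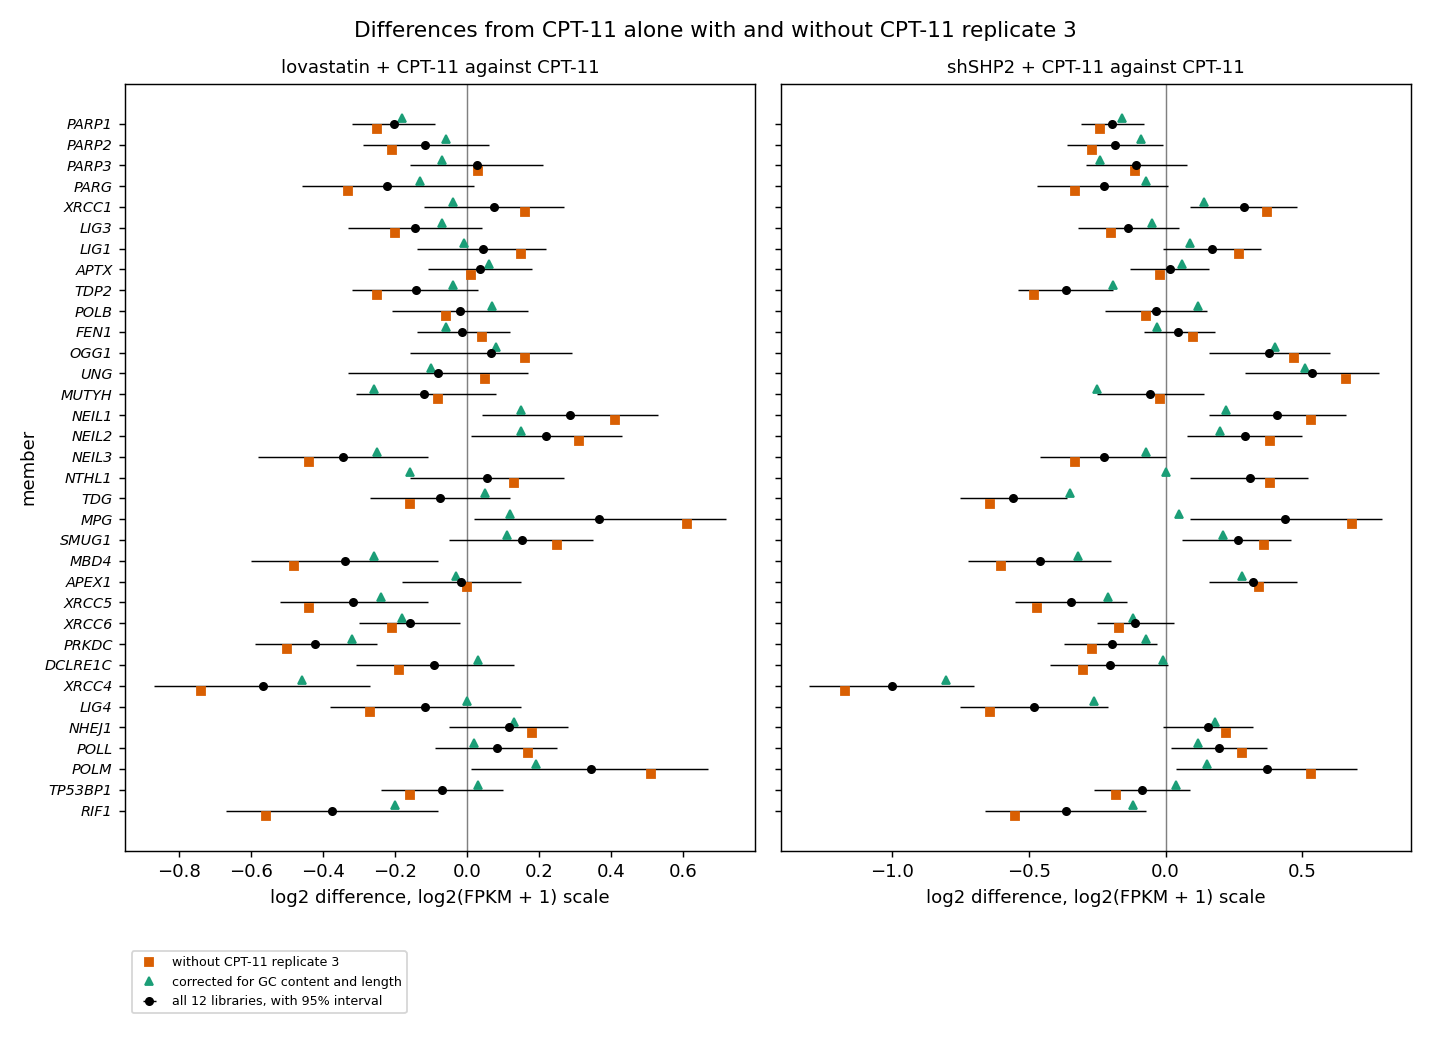
Log2 difference (x axis) of each of the 34 genes (rows) from CPT-11 alone, for lovastatin on the left and silenced cells on the right, as fitted with 12 libraries (black, with 95% interval), without CPT-11 replicate 3 (squares) and after correction for GC content and length (triangles). For XRCC4 in silenced cells these are -1.0, -1.17 and -0.80, whereas for NTHL1 the corrected value is -0.003.

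Of 23 other genes of single-strand break and base excision repair, 3 rose and 2 fell with CPT-11 alone, and without CPT-11 replicate 3 it was 4 higher and 5 lower. Over all genes tested 8.85% were higher and 7.70% lower, or 11.6% and 12.9% without that replicate. The same shares apply to the end-joining list below. PCNA, the sliding clamp of replication and long-patch repair, rose by 0.96 ± 0.06 (adjusted p = 3.3e-06), and HMGB1, a chromatin protein that binds bent DNA, fell by 0.47 ± 0.09 (adjusted p = 0.0032). HPF1, the partner that directs PARP1 to serine, fell by 0.50 ± 0.13 (adjusted p = 0.022). APLF, a histone chaperone that binds poly(ADP-ribose), was higher by 0.36 ± 0.09 (adjusted p = 0.021). Of 18 other end-joining and shieldin genes 1 rose, the nuclease MRE11, by 0.36 ± 0.09 (adjusted p = 0.024), and without replicate 3 it was 1 higher and 2 lower. Lovastatin against CPT-11 gave 0 of 23 and 0 of 18 by limma (0.465% of all genes), and voom called 1 and 0 (0.814%). At an unadjusted p under 0.05, 2 were higher and 10 lower of the first and 5 lower of the second. The share of all genes at that looser threshold was not counted. At the adjusted threshold without replicate 3, 5 were higher and 11 lower of the 23, and 2 and 6 of the 18. Over all genes 15.9% were higher and 14.3% lower there.

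Between silenced cells and CPT-11 alone, 3 of the 23 were higher and 3 lower, and 2 of the 18 were higher and 3 lower. Without replicate 3 these were 8 and 8 of the 23, and 2 and 7 of the 18. RBBP8 (CtIP, which starts end resection) differed by -0.85 ± 0.14 (adjusted p = 0.0044) and PAXX, a paralogue of XRCC4 that binds Ku, by 0.47 ± 0.12 (adjusted p = 0.026). ALKBH2, which reverses alkylation, was higher by 0.39 ± 0.08 (adjusted p = 0.013) and the polymerase delta subunit POLD2 by 0.42 ± 0.11 (adjusted p = 0.022). HMGB1 differed by -0.32 ± 0.09 (adjusted p = 0.023). TDP1, singled out after its values were seen because it removes trapped topoisomerase I, passed in none of the 6 comparisons. TDP1 was at 4.17 to 4.96 FPKM in untreated and 3.77 to 4.20 FPKM in CPT-11 cells.

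Several of the genes above, FEN1, LIG1, UNG and NEIL3 among them, are also used in S phase. Of 30 S phase and proliferation genes 5 rose and 13 fell with CPT-11 alone (median -0.14), against 8.85% and 7.70% of all genes. Among them PLK1 was lower by 1.04 and CDC20 by 1.18. Without replicate 3, 7 rose and 14 fell (11.6% and 12.9% of all genes). With lovastatin against CPT-11 the list had 3 lower (median -0.18), against 0.0720% of all genes. Without replicate 3 it had 1 higher and 17 lower (15.9% and 14.3% of all genes). Silenced against lovastatin had 10 higher (median 0.19), MCM6 by 0.62 and TK1 by 0.56, against 2.58% of all genes. The summed level of the 30 genes was 1502 to 1537 FPKM in untreated, 1410 to 1467 in CPT-11, 1230 to 1269 in lovastatin and 1364 to 1456 in silenced libraries. Its part in the differences of UNG, PRKDC and the others was not tested.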

How the data were processed

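Trizol-extracted total RNA was sequenced from NEBNext Ultra libraries, per the labels' protocols. Per the submitters' processing notes, the tools were DESeq2 1.16.1, featureCounts 1.5.0-p3, HISAT2 2.0.5 and StringTie 1.3.3b, and the build was hg19. The coordinates in the table are those of GENCODE release 29 on GRCh38 (100% of 58735 features with an Ensembl identifier) and are given as GRCh38. How counting treated strand, overlaps and multiply mapped reads is not given in the sources used here.

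The authors deposited FPKM values, 1 column per library. Products of FPKM and gene length fell on whole multiples of a library's smallest step for 100% of nonzero values (within 0.01 of a read), and these multiples are the reads per gene. Tested were 18062 genes, those that reached 10 reads, after scaling to the median library, in 3 or more libraries and had 15 or more in total. The main test was limma 3.58.1 (R 4.3.3) with a trend on log2(FPKM + 1), 1 mean per group over all 12 libraries, with Benjamini-Hochberg adjustment over all genes tested and a threshold of 0.05. Such fold changes understate those of low genes. Errors after ± are standard errors of a difference. The script was tested on simulated data.

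The alternatives were a pseudocount of 0.1, no filter on low values, a fit of only the groups compared, voom on the recovered reads with trimmed-mean scaling, scaling to library totals, library weights, the replicate block, a correction for GC content and length (269 of the genes tested have no GC value), and each library left out. The correction with CPT-11 replicate 3 also left out was added after the data were seen. Groups follow the titles, and the labels name no separate cultures within a group, so the spread behind each p-value may be technical. The genes and lists were chosen with earlier results of these data known. Named with values in every library were all genes of the 34 that passed at least once, and of the other lists at most 5 per comparison with the smallest p.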

Additional observations from a re-analysis of the deposited data

How the results depend on the processing

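Of 61 calls over the 6 comparisons, 31 held whichever of the 6 libraries of the 2 groups compared was left out, and the libraries of the other groups were not left out in turn. A pseudocount of 0.1 FPKM kept 60, scaling to library totals 56, voom 61, the GC and length correction 53 and library weights 61, the last with 67 more. Fewer were kept with no filter on low values, 38, and with only the groups compared, 41 with 15 more. The count for CPT-11 against untreated cells was 7, and 3 with no filter on low values (4.84% of all genes called), 3 with only the groups compared (6.39%) and 16 with library weights (42.2% of all genes). It was 3 to 14 with single libraries left out (10.7% to 24.5%). For lovastatin against CPT-11 it was 1, and 0 with no filter (0.167%), 0 with only these groups (0.199%), 22 with weights (47.2% of all genes) and 2 with the GC and length correction (1.57%). It was 0 to 18 with single libraries left out (0.227% to 30.2%). For silenced cells against CPT-11 it was 14, and 6 with no filter (4.23%), 1 with only these groups (2.50%) and 30 with weights (59.8%). It was 3 to 28 with single libraries left out (5.58% to 43.5%). For silenced against lovastatin it was 3, and 9 with only these groups (13.5%), 10 with weights (21.0%) and 6 with the GC and length correction (12.4%). It was 2 to 3 with single libraries left out (3.31% to 4.05%). For silenced against untreated cells it was 21, and 13 to 21 with single libraries left out (28.4% to 36.3%), 13 without untreated replicate 3 (28.4%). With no filter, low features join the trend and the adjustment. For the other settings the cause was not tested.

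With GC and length corrected and CPT-11 replicate 3 left out, chosen after the data were seen, the counts were 12 for CPT-11 against untreated cells (27.3% of all genes called), 9 for lovastatin against CPT-11 (16.7%) and 18 for silenced cells against CPT-11 (30.4%). NTHL1 in silenced cells against CPT-11 changed sign, from 0.31 to -0.003 (adjusted p = 0.98) with the correction and to -0.058 (adjusted p = 0.57) with that library also left out. These were the only changes of sign among the called values.

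Deviations of libraries with the same number had an r of -0.39 to 0.17 over the 18 same-numbered pairs. Deviations within a group depend on one another, so these values cannot exclude a batch shared by number. The labels name no batch. With the replicate block the counts were 4 for CPT-11 against untreated cells (12.6% of all genes called), 0 for lovastatin against CPT-11 (0.255%) and 8 for silenced cells against CPT-11 (13.0%), and over the 6 comparisons 45 of 61 calls passed and 1 was added. Depth limits NHEJ1 most, at 1 to 16 reads per library.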

Other observations

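The genes that start beside these were looked at because reads and start regions can be shared. A feature on the other strand starts within 1000 bases before the start of 13 of the 34 genes, and 11 of those 13 features were tested. MCM4, a subunit of the replicative helicase, starts 2 bases from PRKDC. MCM4 was at 57.0, 61.7 and 61.6 FPKM in untreated libraries, 47.6, 49.8 and 43.3 with CPT-11, 37.0, 37.0 and 38.4 with lovastatin and 41.9, 44.1 and 46.4 in silenced cells. Like PRKDC it was lowest in the lovastatin libraries, with a difference from CPT-11 of -0.32 ± 0.06 (limma, adjusted p = 0.056).

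Several of the other neighbours did not pass, or went the other way, in a comparison in which the gene beside them passed. DNAJA1, a chaperone that starts 43 bases from APTX, differed by 0.01 ± 0.09 (adjusted p = 0.94) between CPT-11 and untreated cells, in which APTX rose. Between silenced and untreated cells DNAJA1 differed by -0.35 ± 0.09 (adjusted p = 0.0094), where APTX was higher. RRP9, a ribosome biogenesis factor that starts 404 bases from PARP3, differed by -0.37 ± 0.13 (adjusted p = 0.078) between CPT-11 and untreated cells, in which PARP3 rose. DESI1, 23 bases from XRCC6, differed by 0.05 ± 0.06 (adjusted p = 0.58) between CPT-11 and untreated cells. It was higher than untreated with lovastatin (0.18 ± 0.06, adjusted p = 0.036) and when silenced (0.16 ± 0.06, adjusted p = 0.045). XRCC6 was lower in all of these. OSGEP, C12orf73 and ABHD13, beside APEX1, TDG and LIG4, passed in none of the 6 comparisons. ACOT13, beside TDP2, differed by 0.22 ± 0.07 (adjusted p = 0.045) between silenced cells and CPT-11, where TDP2 was lower. ALKBH2 lies 3942 bases from UNG on the other strand, and was higher in silenced cells than with CPT-11 by 0.39 ± 0.08 (adjusted p = 0.013) and than with lovastatin by 0.37 ± 0.08 (adjusted p = 0.022), as UNG was in both comparisons. Against untreated cells ALKBH2 differed by 0.51 ± 0.08 (adjusted p = 0.0009) when silenced, where UNG did not pass. With lovastatin ALKBH2 differed from untreated cells by 0.13 ± 0.08 (adjusted p = 0.27), where UNG was lower. TMEM167A, which starts within XRCC4, also fell in silenced cells against CPT-11, as XRCC4 did. Between lovastatin and untreated cells TMEM167A differed by 0.15 ± 0.06 (adjusted p = 0.11), where XRCC4 was lower by 0.74 ± 0.14 (adjusted p = 0.0021).

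A feature with a mean of at least 0.5 FPKM overlaps 21 of the 34 genes, on the other strand only for 18 of them.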
